A study of Homo sapiens with 9 samples.

Results

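The transcripts of 10 genes of intestinal iron handling were followed in differentiated Caco-2 cells, a line from a human colon tumour whose cells take on features of absorptive enterocytes once confluent. The genes were taken as a list of uptake, storage, export and regulator genes (TFRC, TF, SLC11A2, SLC40A1, FTH1, FTL, CYBRD1, HEPH, IREB2 and SLC25A37), found by NCBI Gene ID among the 28395 genes of the files, and all 10 had enough counts to be among the 16017 genes tested. The list was chosen by function, but with earlier results of these data known, as were the lists of related genes below. SLC25A37 and TF were selected on their CPM pattern over these same libraries, so their values are given as a description with no test. The wild-type cells were compared after 24 h with 10 µM carmine (libraries A, B and C), with 20 µM carminic acid (A, B and C) or in regular culture medium as control (A, B and C). Carmine is the aluminium complex of carminic acid, an insect pigment used to colour food, and the concentrations of the 2 were not the same. All 9 libraries come from 1 cell line, and nothing in the labels ties the 3 samples of a group to separate cultures. The p-values therefore cover only the spread between samples, which may be technical.

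Enterocytes take up dietary iron at the apical membrane, where the reductase CYBRD1 makes ferrous iron and the transporter SLC11A2 (DMT1) carries it into the cell. Iron is then stored in ferritin, a shell of FTH1 and FTL subunits, or leaves through the basolateral exporter SLC40A1 (ferroportin), and the ferroxidase HEPH (hephaestin) oxidises it for loading onto transferrin. Cells also take up transferrin-bound iron through the receptor TFRC. When iron is scarce, the iron regulatory proteins (IREB2 and ACO1) bind hairpins called iron-responsive elements, which lowers translation when the hairpin lies in the 5′ UTR and protects the mRNA when it lies in the 3′ UTR.

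These hairpins are shown for 3 of the members because they are the known handle of iron on the transcripts measured here. Sequences of 8 members were searched in GENCODE 29 transcripts (GRCh38), FTH1 and SLC25A37 being left out, for the pattern CNNNNNCAGTGNNNNNN of 17 letters, in which the 5 letters before and after the 6-letter loop had to pair, G with T allowed, on the transcript strand only. Each site is printed 5′ to 3′ in DNA letters with 6 bases on either side of the pattern and the loop in capitals.
FTL 5′ UTR, chr19:48965335-48965363, plus strand: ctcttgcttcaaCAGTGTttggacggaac
SLC40A1 5′ UTR, chr2:189580661-189580689, minus strand: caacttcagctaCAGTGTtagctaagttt
TFRC 3′ UTR, chr3:196050979-196051007, minus strand: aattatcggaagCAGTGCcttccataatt
TFRC 3′ UTR, chr3:196050575-196050603, minus strand: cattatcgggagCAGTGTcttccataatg
TFRC 3′ UTR, chr3:196050510-196050538, minus strand: ctgtatcggagaCAGTGAtctccatatgt
TFRC 3′ UTR, chr3:196050463-196050491, minus strand: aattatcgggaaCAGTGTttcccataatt

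The pattern was found in 1.41% of 15454 transcripts, 1 per tested gene, and TFRC was the 1 transcript with 4 matches, the highest number seen. A further match lay in the last exon of TF, and none was found in SLC11A2, CYBRD1, HEPH or IREB2. The pattern asks for full pairing, so a gene without a match can still carry an element. SLC11A2 is among the transcripts with a known iron-responsive element counted below. A match is a description of the letters and not a measurement of binding.

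The libraries held 54871018 to 57581301 counts each. Libraries are scaled by TMM factors, and levels are given as CPM, a gene's share of the scaled counts of a library. Carmine library C stood apart from its group: its counts differed from those of carmine libraries A and B by a chi-square per degree of freedom of 77.2 and 56.7, where the other replicate pairs lay between 9.51 and 21.2. Across 15454 genes, the Spearman correlation of its deviations with transcript length was -0.38, against -0.12 to 0.25 in the other libraries. With GC content it was 0.50, within the span of the others (-0.51 to 0.56) but opposite to carmine libraries A and B (both -0.44). The fold changes between groups ran with both features too. Their Spearman correlation with GC content was 0.14 with carmine, 0.48 with carminic acid and -0.30 for carmine against carminic acid. With length it was -0.25, -0.099 and -0.19 in the same order. Some values below are also given with these trends removed. Of 16 enterocyte markers, 14 reached a mean of 1 CPM, while CDX1 stayed under it and KRT20 had no count in any library. In bulk RNA, fewer cells of a type and less RNA per cell cannot be told apart.

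Set against each other per transcript length, the ferritin subunits led and transferrin came last. Levels per length are given as TPM, in which counts were divided by transcript length and scaled to the same sum in every library. Over the 9 libraries they averaged 5485 for FTL, 2790 for FTH1, 1557 for SLC11A2, 816 for SLC40A1, 660 for TFRC, 318 for HEPH, 66.5 for IREB2, 14.9 for CYBRD1, 10.4 for SLC25A37 and 0.101 for TF. FTL stood above 99.9% of tested genes with a length, and CYBRD1 above 51.2%. The ranges over libraries of neighbours in this order did not overlap for any of the 9 pairs, the closest being CYBRD1 (13.03 to 16.8 TPM) and SLC25A37 (8.44 to 12.8 TPM). The place of TF does not hang on its long annotated transcript of 20602 bases, of which the last exon takes 18055: over its 2094 coding bases its level would be 0.998 TPM.

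**Figure D1:**
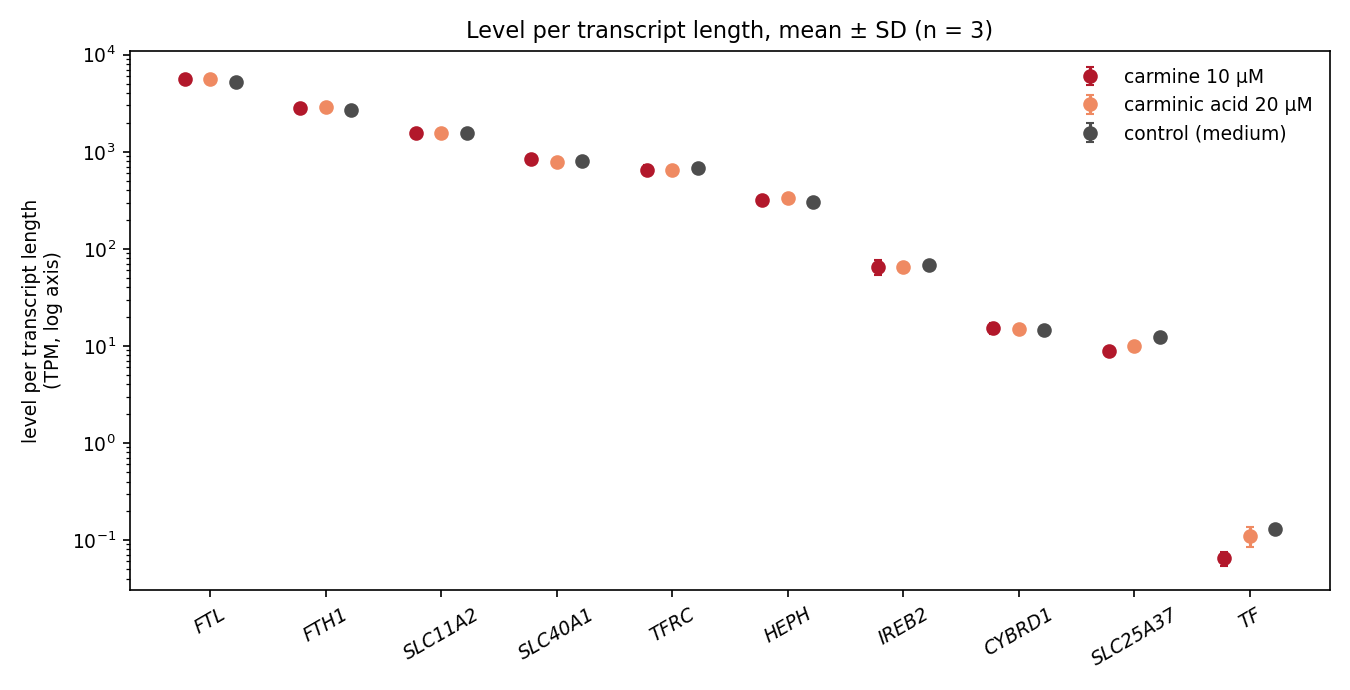
Mean level per transcript length of the 10 genes (vertical log axis, TPM) in the carmine, carminic acid and control groups; points are means and bars SD over 3 libraries. The genes are ordered by their mean over all 9 libraries, with FTL at 5485 TPM and TF at 0.101 TPM.

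The comparisons asked whether the colorants shift transcripts of iron uptake, storage and export. Of the 8 members that were not picked for their pattern, 0 passed an adjusted p of 0.05 in edgeR's quasi-likelihood test in any of the 3 comparisons, and 0 passed in DESeq2 or limma-voom. Among all 16017 genes the share called was 0% with carmine and 0% with carminic acid, each set against control, and 0.00624% (the gene CNIH1 alone) between the colorants. With carmine, 6 of the 8 had positive log2 fold changes (median 0.099), where 51.7% of all tested genes were positive (median 0.0066). With carminic acid, 5 of the 8 were positive (median 0.026), where 48.1% of all genes were (median -0.0078). An unadjusted p under 0.05 was seen for 1 of the 8, HEPH, in each colorant comparison, beside 11% of all genes with carmine and 6.43% with carminic acid. Both comparisons use the same 3 control libraries.

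**Figure D2:**
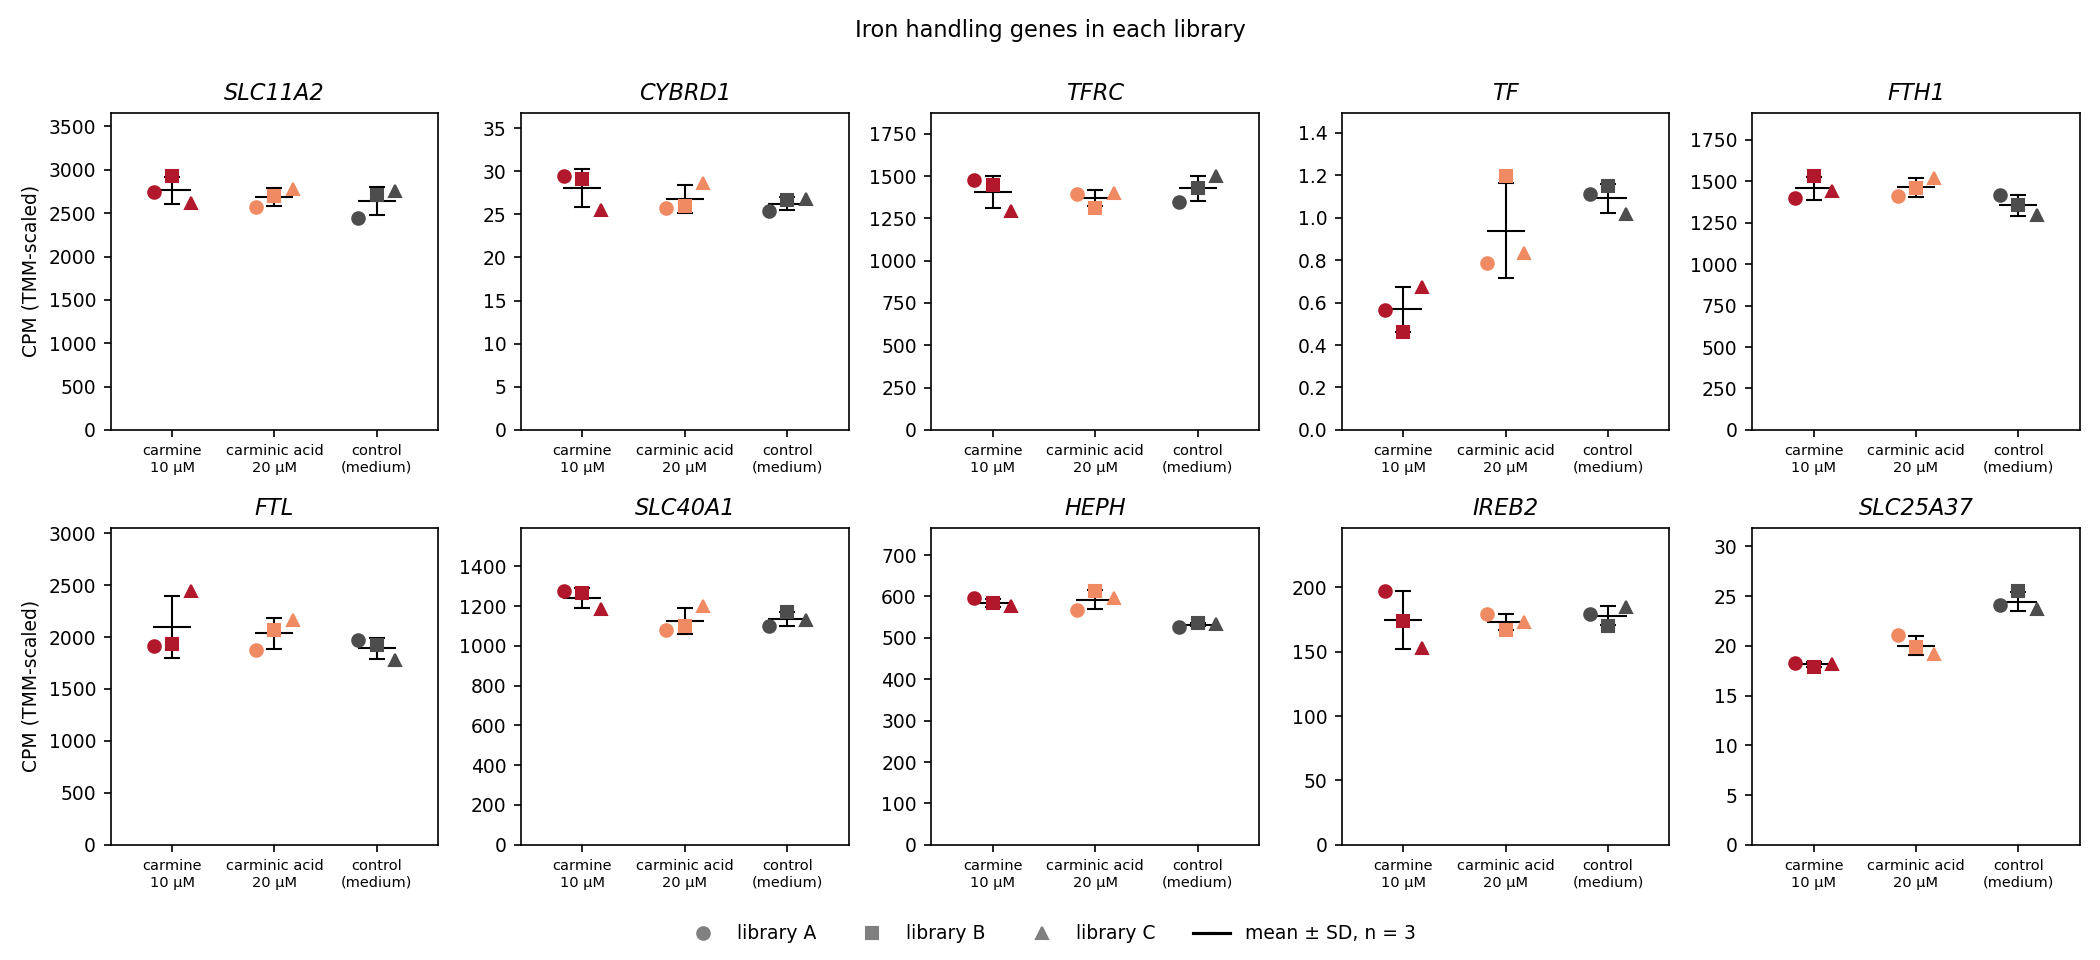
Level of each gene in each library (vertical axis, TMM-scaled CPM, from 0) in the carmine, carminic acid and control groups; symbols mark libraries A, B and C, and bars are the mean ± SD (n = 3). The groups of SLC25A37 do not overlap, with 17.9 to 18.3 CPM with carmine, 19.2 to 21.0 CPM with carminic acid and 23.7 to 25.5 CPM in control, and the carmine libraries of TF lie at 0.463 to 0.674 CPM, under all others.

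The genes of apical iron uptake overlapped between groups. SLC11A2 (Gene ID 4891, chromosome 12, 50952263 to 51028886, GRCh38.p14), the ferrous iron importer, had 2740.3, 2927 and 2617 CPM in carmine libraries A, B and C, 2576, 2698 and 2778 CPM in carminic acid libraries and 2449.6, 2711 and 2759 CPM in control libraries. The 3 groups overlapped. The log2 fold change was 0.065 with carmine (SE 0.075, 95% interval -0.095 to 0.22, edgeR adjusted p = 0.754) and 0.024 with carminic acid (SE 0.075, interval -0.14 to 0.18, edgeR adjusted p = 0.935). CYBRD1 (79901, chromosome 2, 171522233 to 171558129), the ferric reductase, was far less abundant, at 29.4, 29.1 and 25.5 CPM with carmine, 25.7, 25.9 and 28.7 CPM with carminic acid and 25.3, 26.7 and 26.7 CPM in control. Again the groups overlapped, with carmine libraries A and B above every control library and carmine library C above control library A alone. Its log2 fold change was 0.094 with carmine (interval -0.090 to 0.28, edgeR adjusted p = 0.687) and 0.027 with carminic acid (interval -0.16 to 0.21, edgeR adjusted p = 0.937).

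TFRC (7037, chromosome 3, 196049284 to 196082090), the transferrin receptor, whose mRNA carries the 3′ UTR hairpins shown above, had 1477, 1445 and 1296 CPM with carmine. It had 1396, 1313 and 1398 CPM with carminic acid, against 1349.5, 1432 and 1499 CPM in control. The lowest value was that of carmine library C and the highest that of control library C, and the groups overlapped. The 95% interval of its fold change ran from 0.883 to 1.10 with carmine (edgeR adjusted p = 0.932) and from 0.860 to 1.07 with carminic acid (edgeR adjusted p = 0.814). The sign of both small values turned with the trends of length and GC content removed, to 0.039 with carmine and 0.025 with carminic acid.

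TF (7018, chromosome 3, 133661998 to 133796641), the gene of transferrin, the iron carrier of serum made mainly by liver, was near the limit of detection. It had 33, 26 and 37 counts (0.567, 0.463 and 0.674 CPM) in carmine libraries A, B and C. It had 45, 67 and 46 counts (0.788, 1.20 and 0.833 CPM) with carminic acid, against 62, 65 and 58 counts (1.11, 1.15 and 1.02 CPM) in control. All carmine libraries were thus under all control libraries and under all carminic acid libraries, while carminic acid overlapped control because of its library B. The fitted log2 fold change was -0.94 for carmine against control, -0.22 for carminic acid against control and -0.72 for carmine against carminic acid, given here as the values that drew attention to the gene. Groups did not overlap in the lower direction for 7.67% of all tested genes in the first comparison and 6.01% in the last.

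TF shares its place with SRPRB, a subunit of the signal recognition particle receptor, which is annotated on the same strand at 133784023 to 133828574 and so overlaps the long last exon of TF. SRPRB stood at 59.5, 60.6 and 65.5 CPM with carmine, 56.5, 54.8 and 54.1 CPM with carminic acid and 54.5, 54.7 and 54.8 CPM in control. All carmine libraries of SRPRB were above all control and carminic acid libraries, where 7.32% and 7.09% of all tested genes were above the 1 and the other. Reads of the shared stretch cannot be assigned to either gene with certainty, and their part in the TF counts was not tested. The 11 hepatocyte-type markers, of which 10 reached 1 CPM and CYP3A4 did not, summed to 5667 to 6402 CPM with carmine and 5585 to 6221 CPM with carminic acid, against 5075 to 5584 CPM in control, and 9 of the 11 had positive log2 fold changes with each colorant, where 51.7% of all genes did with carmine and 48.1% with carminic acid. The 3 genes whose log2 CPM followed TF most closely over the 9 libraries, among 13238 genes, were IZUMO4 (Pearson r = 0.981), OTOF (r = 0.975) and ULBP3 (r = 0.970), all at 0.773 to 2.55 CPM per library. This is a ranking over libraries that share their groups and depth, and carries no p.

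Ferritin transcripts were among the most abundant of the cells and overlapped between groups. FTH1 (2495, chromosome 11, 61964285 to 61967634), the heavy subunit with the ferroxidase centre, had 1399.8, 1532 and 1441 CPM with carmine, 1409, 1462 and 1521 CPM with carminic acid and 1419, 1355 and 1294 CPM in control. Only control library A, at 1419 CPM, lay within the range of the colorant groups. Log2 fold changes were 0.10 with carmine (SE 0.070, 95% interval -0.045 to 0.25, edgeR adjusted p = 0.570) and 0.11 with carminic acid (SE 0.070, interval -0.039 to 0.26, edgeR adjusted p = 0.717). FTL (2512, chromosome 19, 48965309 to 48966879), the light subunit, had 1912, 1933 and 2443 CPM with carmine, 1871, 2066 and 2166 CPM with carminic acid and 1969.5, 1922 and 1778 CPM in control. Carmine library C held the highest FTL level of all 9 libraries, and the groups overlapped. The log2 fold change with carmine was 0.15 (interval -0.056 to 0.35, edgeR adjusted p = 0.554), but 0.030 without carmine library C. With carminic acid it was 0.11 (interval -0.099 to 0.31, edgeR adjusted p = 0.767), but 0.063 without control library C and 0.051 without carminic acid library C.

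The ratio of FTL to FTH1 counts, in which scaling cancels, showed the same library apart. It was 1.37, 1.26 and 1.69 in carmine libraries A, B and C, 1.33, 1.41 and 1.42 in carminic acid libraries and 1.39, 1.42 and 1.37 in control libraries. The FTL transcript is the shortest of the members, with 878 bases and 56.3% GC, and FTH1 has 1229 bases and 50.1% GC. The part of the length and GC trends of carmine library C in this ratio was not tested. The 1 FTH1 pseudogene found in the files by its symbol, FTH1P3, drew 77 counts over all libraries, 0.0107% of the count of FTH1, and the 1 FTL pseudogene, FTLP10, drew 0, but how reads with several matches were counted was not given in these sources.

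At the export step, HEPH (9843, chromosome X, 66162671 to 66268863), the membrane ferroxidase that works with ferroportin, had 595, 584 and 577 CPM with carmine, 568, 613 and 596 CPM with carminic acid and 527, 535 and 533 CPM in control. All 6 colorant libraries were above all 3 control libraries. The control libraries varied by only 0.745% (coefficient of variation), against 1.62% with carmine and 3.85% with carminic acid. The log2 fold change was 0.14 with carmine (SE 0.063, 95% interval 0.0038 to 0.27, edgeR adjusted p = 0.450) and 0.16 with carminic acid (SE 0.063, interval 0.021 to 0.29, edgeR adjusted p = 0.717), so neither passed. Over the alternatives tried, the edgeR, DESeq2 and limma-voom adjusted p of HEPH ran from 0.0537 to 0.687 with carmine, the lowest with the length and GC trends removed, and from 0.124 to 0.997 with carminic acid.

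SLC40A1 (30061, chromosome 2, 189560590 to 189580786), the ferroportin gene, had 1276, 1264 and 1185 CPM with carmine, 1079, 1099 and 1200.3 CPM with carminic acid and 1101, 1172 and 1129 CPM in control. The carmine libraries were all above the control libraries, while carminic acid overlapped both. The log2 fold change was 0.13 with carmine (SE 0.070, interval -0.018 to 0.28, edgeR adjusted p = 0.485) and -0.0097 with carminic acid (interval -0.16 to 0.14, edgeR adjusted p = 0.971). HEPH and SLC40A1 were the 2 of 8 tested members whose carmine and control libraries did not overlap, both higher, where 7.32% of all tested genes did the same. With carminic acid it was 1 of 8, HEPH, where 12% did.

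IREB2 (3658, chromosome 15, 78437431 to 78501453), which encodes iron regulatory protein 2, had 197, 174 and 153 CPM with carmine, 179, 167 and 173 CPM with carminic acid and 179, 170 and 185 CPM in control. Carmine held both the highest and the lowest library, A and C, so its coefficient of variation was 12.8%, against 3.56% with carminic acid and 4.22% in control. The log2 fold change was -0.027 with carmine (interval -0.21 to 0.15, edgeR adjusted p = 0.924) and -0.040 with carminic acid (interval -0.22 to 0.14, edgeR adjusted p = 0.900). The carmine value was 0.065 without carmine library C. With the length and GC trends removed the values were 0.029 and 0.084. IREB2 has the longest transcript of the tested members, 6354 bases, and the lowest GC content, 38.3%.

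SLC25A37 (51312, chromosome 8, 23528956 to 23575463) encodes mitoferrin-1, a carrier that brings iron into the mitochondrial matrix and is best known from red cell precursors. It had 18.3, 17.9 and 18.2 CPM with carmine, 21.0, 19.9 and 19.2 CPM with carminic acid and 24.1, 25.5 and 23.7 CPM in control. The 3 groups did not overlap, and carminic acid lay between carmine and control. The mean was 18.1 ± 0.224 CPM with carmine and 20.0 ± 0.945 CPM with carminic acid, against 24.4 ± 0.942 CPM in control (SD, n = 3). The fitted log2 fold change was -0.43 for carmine against control, -0.29 for carminic acid against control and -0.14 for carmine against carminic acid, again as the values for which it was picked. Its groups did not overlap in the lower direction where 7.67%, 8.82% and 6.01% of all tested genes did so. Over the alternatives tried, the value ran from -0.46 to -0.38 for carmine and from -0.33 to -0.26 for carminic acid. For TF it ran from -1.09 to -0.77 and from -0.43 to -0.11 in the same order. These alternatives refit the libraries on which both genes were picked, so the ranges are no separate support.

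Counts of genes on mitochondrial DNA ran in a similar order as a share of the total, at 0.974% to 1.30% with carmine and 1.24% to 2.08% with carminic acid, against 1.94% to 2.51% in control. Its part in the SLC25A37 values was not tested. Of 9 erythroid markers, 0 reached 1 CPM, HBB and AHSP had no count, and the sum of all 9 was 0.0891 to 0.310 CPM with carmine, 0.123 to 0.339 CPM with carminic acid and 0.158 to 0.430 CPM in control. SLC25A28, the gene of mitoferrin-2, the carrier of non-erythroid cells, averaged 10.7 ± 1.19 CPM with carmine, 11.7 ± 1.41 CPM with carminic acid and 11.5 ± 0.819 CPM in control, with overlap. The genes most like SLC25A37 over the 9 libraries, among 13237, were SDHAP4 (Pearson r = 0.975), PRPF3 (r = 0.959), a splicing factor gene, and SDHAP1 (r = 0.948). SDHAP1 and SDHAP4 are pseudogenes of SDHA, and their reads cannot be separated from those of their relatives here.

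**Figure D3:**
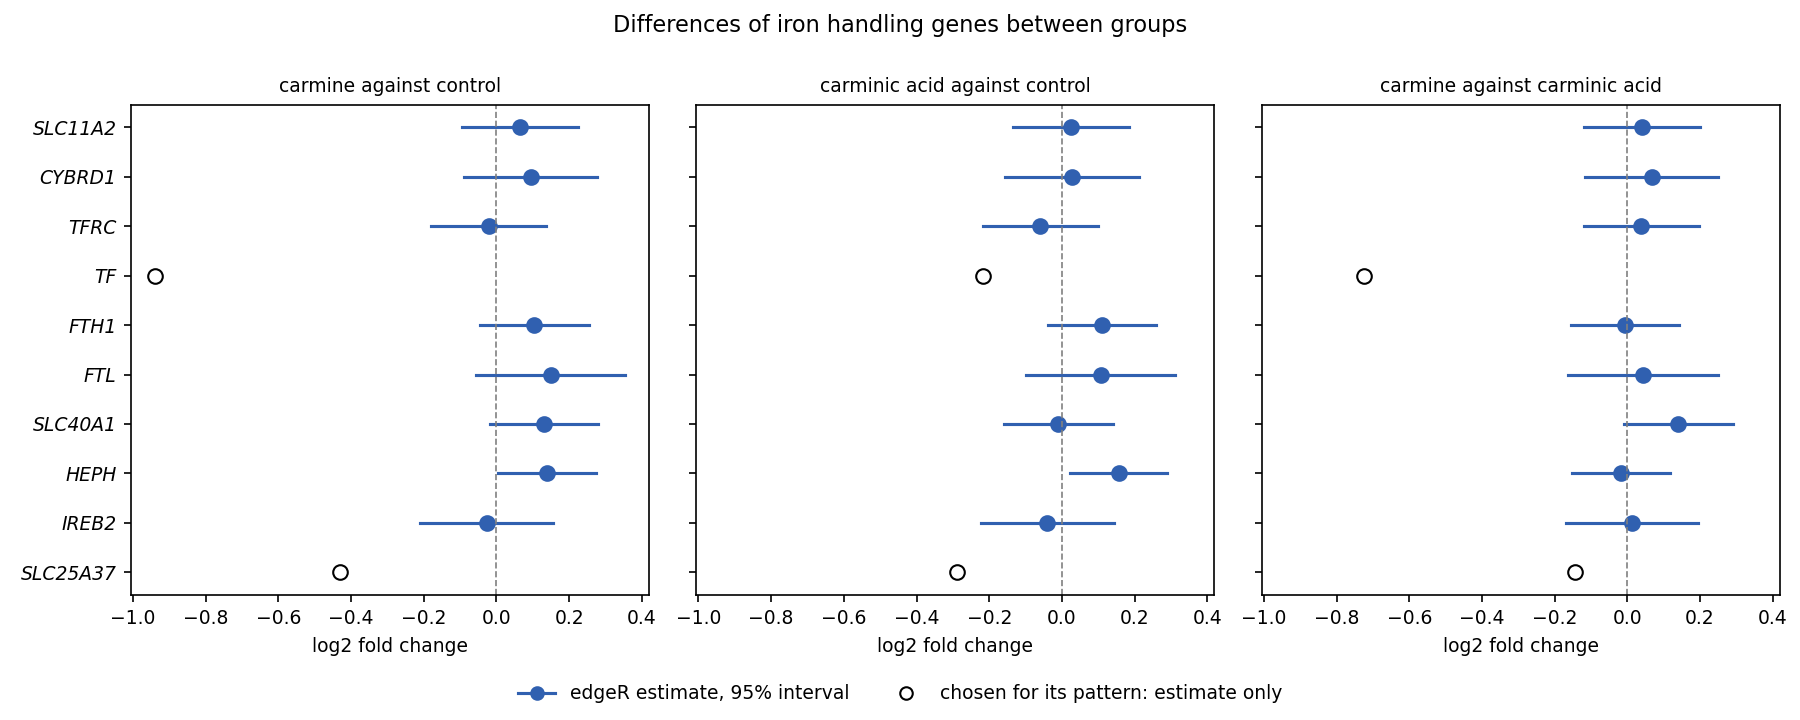
Log2 fold changes of the 10 genes (horizontal axis) for each colorant against control and for carmine against carminic acid; filled points are edgeR estimates with 95% intervals, and open points are TF and SLC25A37, chosen for their pattern and given with no interval. Among the filled points, only the intervals of HEPH against control leave out 0, and these are not adjusted over genes.

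Set directly against each other, carmine and carminic acid differed in metal and also in concentration, 10 µM against 20 µM, so a difference could not be laid to either. None of the 8 tested members passed, with edgeR adjusted p from 0.592 to 0.988, and 0 had an unadjusted p under 0.05, where 8.9% of all genes did. Of the 8, 6 were positive, where 51.1% of all genes were, and in 0 were the carmine libraries all higher, where 7.09% were. The farthest from 0 was SLC40A1, at 1242 ± 49.6 CPM with carmine and 1126 ± 64.8 CPM with carminic acid (SD, n = 3 each; log2 fold change 0.14, 95% interval -0.0084 to 0.29, edgeR adjusted p = 0.592). For the other members the intervals of the fold change stayed between 0.889 and 1.19. Intervals of this width do not show that the compounds act alike.

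The direct partners of these genes were read from a list chosen with the members. Of 14 partners, 13 were tested and 0 passed in edgeR with either colorant, HMOX1 alone having an unadjusted p under 0.05 in each. Of the 13, 6 were positive with carmine (median -0.0030) and 8 with carminic acid (median 0.028), with edgeR adjusted p from 0.399 to 0.994 and from 0.717 to 0.974. HAMP, the gene of the liver hormone hepcidin, was the 1 not tested, with 6 counts in all libraries, none of them with carmine. ACO1, which encodes iron regulatory protein 1, averaged 129.5 ± 4.51 CPM with carmine and 134 ± 1.63 CPM with carminic acid, against 124 ± 1.75 CPM in control, and neither group overlapped control (log2 fold changes 0.061 and 0.11, edgeR adjusted p = 0.720 and 0.717). FBXL5, an iron-sensing ubiquitin ligase subunit that targets iron regulatory protein 2, averaged 32.6 ± 2.97 CPM with carmine and 29.9 ± 1.38 CPM with carminic acid, against 33.0 ± 1.70 CPM in control, and the carminic acid libraries were all under the control libraries. The iron chaperone genes PCBP1 and PCBP2 averaged 602 ± 31.0 and 744 ± 31.9 CPM with carminic acid, against 562 ± 6.75 and 692 ± 16.4 CPM in control, without overlap (log2 fold changes 0.099 and 0.11, edgeR adjusted p = 0.743 and 0.717), but these were 0.053 and 0.066 without carminic acid library C. With carmine, 2 of the 13 partners had all libraries above control, ACO1 and HMOX1, where 7.32% of all genes did. With carminic acid 4 did, with PCBP1 and PCBP2 added, where 12% of all genes did, and FBXL5 was the 1 with all libraries under control, where 8.82% were.

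The remaining partners overlapped between each colorant and control. NCOA4, the receptor that brings ferritin to autophagy, averaged 311 ± 20.0 CPM with carmine and 304 ± 22.8 CPM with carminic acid, against 311 ± 28.6 CPM in control. SLC39A14, a zinc and iron importer gene, averaged 989 ± 30.3, 996 ± 19.7 and 963 ± 30.5 CPM in the same order. EPAS1, the gene of HIF-2 alpha, averaged 69.1 ± 2.88, 71.8 ± 3.02 and 71.1 ± 2.21 CPM, and HFE, the hemochromatosis gene, 15.5 ± 1.36, 14.8 ± 0.760 and 14.9 ± 0.328 CPM. CP, the gene of the serum ferroxidase ceruloplasmin, stood at 8.17 ± 0.604, 8.24 ± 0.585 and 8.82 ± 1.05 CPM. STEAP3, an endosomal ferrireductase gene, stood at 5.42 ± 0.595, 5.24 ± 0.240 and 5.64 ± 0.383 CPM, and TFR2, the second transferrin receptor gene, at 2.02 ± 0.270, 2.35 ± 0.399 and 2.19 ± 0.352 CPM.

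Among 24 tested genes of 32 on a list of other iron handling genes, 0 passed in edgeR in any comparison, and 3, 1 and 2 had an unadjusted p under 0.05 with carmine, with carminic acid and between the colorants, where 11%, 6.43% and 8.9% of all genes did. Most of the partners above are on this list too, so its counts are not separate from theirs. With carmine 13 were positive (median 0.047), where 51.7% of all genes were, and with carminic acid 15 (median 0.058), where 48.1% were. The smallest p belonged to HIF1A with carmine, a hypoxia transcription factor gene, at 57.2 ± 6.10 CPM against 67.7 ± 2.49 CPM in control (-0.24 log2, SE 0.086, edgeR adjusted p = 0.384). It passed in 1 of 17 alternatives, edgeR with the length and GC trends removed (adjusted p = 0.0431), where 356 of 15454 genes passed. Without carmine library C the HIF1A value was -0.16. With carminic acid the smallest p belonged to TMPRSS6, a protease gene of hepcidin control, at 44.6 ± 5.57 CPM against 35.8 ± 2.20 CPM in control (0.32, SE 0.14, edgeR adjusted p = 0.717). For carmine against carminic acid it belonged to NDFIP1, an adaptor for ubiquitin ligases that act on SLC11A2 protein, at 139 ± 7.06 CPM against 119.5 ± 6.30 CPM (0.22, SE 0.071, edgeR adjusted p = 0.419).

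Genes of mitochondrial iron, heme synthesis and iron-sulfur clusters, the destination served by mitoferrin, had mostly positive values with carmine. Of 29 tested, 25 were positive (median 0.11), where 51.7% of all genes were (median 0.0066). The list was chosen with earlier results of these data known, so this count is a description. In edgeR 0 passed, and 4 had an unadjusted p under 0.05, where 11% of all genes did. Without carmine library C 20 of 29 were positive, with a median of 0.061. In 7 of 29 the carmine libraries were all above the control libraries, where 7.32% of all genes were. GLRX5, a glutaredoxin of iron-sulfur cluster transfer, had the smallest p, at 46.1 ± 1.11 CPM with carmine and 38.6 ± 1.09 CPM in control (0.26 log2, SE 0.070, edgeR adjusted p = 0.332). It passed in 2 of 17 alternatives. In DESeq2 its adjusted p was 0.0357, where 75 of 15924 genes passed. In edgeR with the trends of length and GC content removed it was 0.0485, where 356 of 15454 genes passed.

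With carminic acid 20 of the 29 were positive (median 0.028), where 48.1% of all genes were. This was 15 of 29 when scaled by library size alone, where 41.8% of all genes were positive. It was 16 of 29 without carminic acid library C (median 0.018), where 47.1% of all genes were. Without control library A it was 14 of 29, with the list median turned to -0.020, where 47.5% of all genes were. NFS1, the cysteine desulfurase gene of cluster assembly, had the smallest p there, at 113 ± 6.84 CPM against 101 ± 2.13 CPM in control (0.15, SE 0.068, edgeR adjusted p = 0.717). For carmine against carminic acid 23 of 29 were positive (median 0.086), where 51.1% of all genes were (median 0.0046). This was 16 of 29 without carmine library C (median 0.0020) and 19 of 29 with limma-voom (median 0.023). TMEM14C, a gene of porphyrin transport in mitochondria, stood at 67.5 ± 1.09 CPM with carmine and 56.8 ± 1.09 CPM with carminic acid (0.25, SE 0.066, edgeR adjusted p = 0.369). It passed in 2 of 17 alternatives. In DESeq2 its adjusted p was 0.0246, where 77 of 13370 genes passed. In edgeR without carmine library C it was 0.0354, where 685 of 16266 genes passed.

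In the 14 genes of heme uptake, export and breakdown, 12 were positive with carmine (median 0.10) and 8 with carminic acid (median 0.11). Among all genes 51.7% were positive with carmine (median 0.0066) and 48.1% with carminic acid (median -0.0078). The count with carmine was 9 of 14 without control library B, and the median was 0.061 without carmine library C. In edgeR 0 passed, and 3 and 2 had an unadjusted p under 0.05, where 11% and 6.43% of all genes did. HP, the gene of haptoglobin, which binds free hemoglobin, had the smallest p with carmine, at 5.37 ± 0.505 CPM against 3.84 ± 0.245 CPM in control (0.48 log2, SE 0.13, edgeR adjusted p = 0.332). HMOX1, the inducible heme oxygenase gene, whose product frees iron from heme, had the smallest p with carminic acid, at 75.9 ± 5.35 CPM against 64.2 ± 1.05 CPM in control (0.24, SE 0.086, edgeR adjusted p = 0.717). PGRMC1, a heme-binding membrane protein gene, had the smallest p between the colorants, at 260.0 ± 6.71 CPM with carmine and 239 ± 4.72 CPM with carminic acid (0.12, SE 0.062, edgeR adjusted p = 0.596). Among 8 tested transcripts with a known iron-responsive element, 5 were positive with carmine (median 0.084) and 5 with carminic acid (median 0.019), where 51.7% and 48.1% of all genes were. In edgeR 0 passed, and 0 had an unadjusted p under 0.05.

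**Figure D4:**
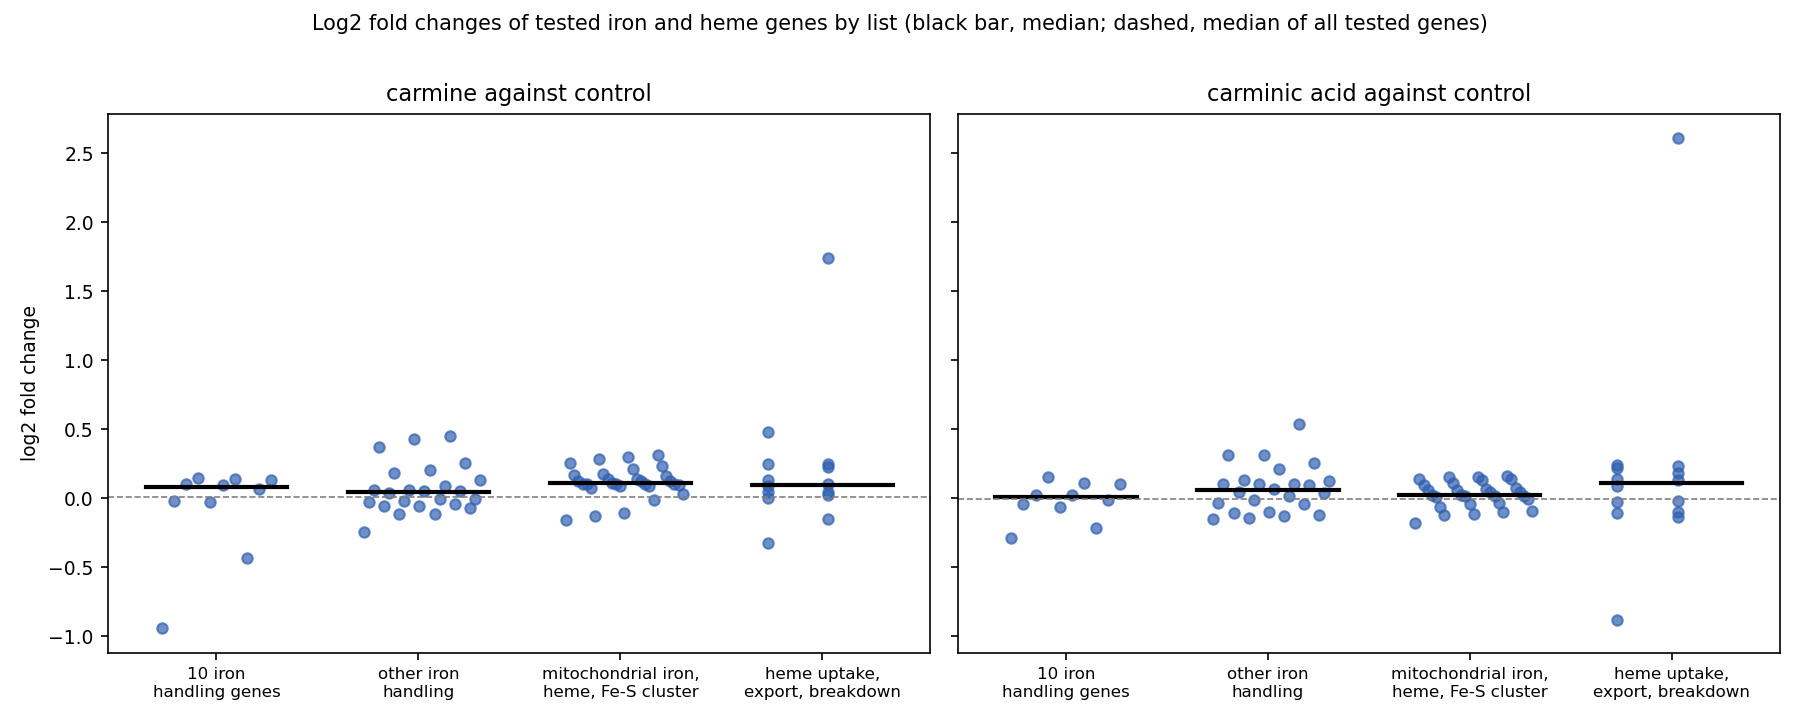
Log2 fold changes (vertical axis) of the tested genes of 4 lists for each colorant against control; each point is a gene, black bars are list medians and the dashed line is the median of all tested genes. The list medians with carmine are 0.079, 0.047, 0.11 and 0.10 from left to right. The first list includes TF and SLC25A37, picked for their pattern, and its median with carmine over the other 8 genes is 0.099. The far point of the heme list is HMOX2, named after its values were seen, with 0.403 to 5.41 CPM per library. The heme list spans -0.32 to 1.74 with carmine and -0.88 to 2.61 with carminic acid.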

How the data were processed

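RNA-seq of 9 libraries, 3 per group, was analysed. The authors deposited raw counts per gene, 1 table per library, with NCBI Gene IDs. The counts come from HISAT2 alignments, per the file headers, and the submitters' processing notes name FastQC, HISAT, featureCounts and hg38 with no version. The annotation release, the strand setting and the treatment of reads with several matches are not stated in those sources. Names and positions are from RefSeq (GRCh38.p14), and transcript lengths, GC content and hairpin sites from GENCODE 29. Lengths use 1 transcript per gene, and the hairpin search of the members used all their coding transcripts. TPM were computed here from the deposited counts and these lengths.

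Counts were fitted in R 4.3.3 with edgeR 4.0.16 (filterByExpr, TMM, robust quasi-likelihood, all 9 libraries, no covariate), with Benjamini-Hochberg adjustment over 16017 genes and a threshold of 0.05. The biological coefficient of variation was 10.9%. Intervals are 95% intervals. Alternatives used DESeq2 1.42.0 and limma 3.58.1. Trends were removed with splines of length and GC content in each library. Replicate pairs differed beyond sampling noise (chi-square per degree of freedom 9.51 to 77.2).

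The members and lists were chosen with earlier results of these data known. All members were named, as were fixed partners, the gene of smallest p in each list and comparison, and the 3 genes most correlated with TF and with SLC25A37 among genes averaging 0 or more on the log2 CPM scale.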

Additional observations from a re-analysis of the deposited data

How the results depend on the processing

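No alternative carried any of the 8 tested members past the threshold, and of 408 recomputed values of these 8 genes 374 kept their direction. The values that turned sign were all close to 0. With the length and GC trends removed they were TFRC (0.039 with carmine, 0.025 with carminic acid), IREB2 (0.029, 0.084, and -0.056 for carmine against carminic acid), SLC40A1 (0.074 with carminic acid) and HEPH (0.022 for carmine against carminic acid). With limma-voom they were TFRC (0.0069) and IREB2 (0.027) with carmine, and FTH1 (0.011) and FTL (-0.046) between the colorants. With library size alone SLC11A2 turned (-0.0020 with carminic acid), and with no filter FTH1 did (0.0023 between the colorants). Leaving out 1 library gave, with carmine, -0.063 to 0.038 for TFRC and -0.12 to 0.065 for IREB2. With carminic acid it gave -0.036 to 0.055 for SLC11A2, -0.066 to 0.014 for SLC40A1 and -0.033 to 0.050 for CYBRD1. Between the colorants it gave -0.00070 to 0.088 for SLC11A2, -0.042 to 0.030 for FTH1, -0.072 to 0.11 for FTL, -0.040 to 0.0097 for HEPH and -0.084 to 0.11 for IREB2. The cause of these turns was not tested.

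Counts of called genes over the whole table moved more. For carmine against control they were 0 in the fit reported, 7 with RLE factors, 7 with library size alone, 19 with no filter, 356 with the trends removed, 12 with only the 6 libraries compared, 75 with DESeq2 and 43 with limma-voom, and 0 to 36 with 1 library left out. For carminic acid against control they were 0, then 2 with no filter, 4 with the trends removed, 49 with the 6 libraries compared, 8 with DESeq2, 34 with limma-voom, and 0 to 21 with 1 library left out. For carmine against carminic acid they were 1, then 2 with RLE factors, 2 with library size alone, 9 with no filter, 7 with the trends removed, 77 with DESeq2, 13 with limma-voom, and 0 to 685 with 1 library left out, the highest without carmine library C. The 9 pairs of libraries with the same letter had correlations of deviations from -0.15 to 0.095. Pairs with different letters ran from -0.16 to 0.16. These values do not show whether libraries with the same letter shared a culture or batch. With the letter as a replicate block carmine against carminic acid had 0 calls. The block changed no other count of calls and no call of a member. The number of positive tested members with carminic acid was 5, but 8 with the trends removed, where 58.4% of all genes were positive. It was 3 without control library A or carminic acid library C, where 47.5% and 47.1% were. For transcripts with an iron-responsive element it was 5, but 3 with library size alone and 3 without either of the same libraries. With carmine the number of positive tested members was 6. It was 8 with the trends removed (58.1% of all genes), with limma-voom (49.6%), without control library C (53.1%) and without carmine library C (50.3%). TF, with 26 to 67 counts per library, was limited by depth.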
